A study of Ichthyophis bannanicus with 29 samples.

Results

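The lung and the heart of *Ichthyophis bannanicus*, a limbless burrowing amphibian of the caecilian order, were compared by RNA sequencing. The comparison used 6 of the 29 libraries of the series, 3 labelled lung and 3 labelled heart, chosen by their tissue label and not by any measured value. Of the 53113 assembled genes in the table, 37325 reached 1 TPM or more, where TPM is the number of transcripts per 1000000, in at least 2 of these 6 libraries and were tested. The labels give the species and the tissue of each library, and they give no treatment, sex, age, or animal of origin. All the samples were prepared alike, from poly-T selected messenger RNA, per the labels' protocols. Whether libraries with the same replicate number came from the same animal, and whether replicates came from separate animals, is not stated, so a p-value here speaks of the spread among these libraries, which may be technical.

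Lung and heart do very different work in the chest of an air-breathing amphibian. The lung is a thin-walled sac whose epithelium secretes surfactant, a mixture of lipids and proteins that keeps the air spaces open, and gas exchange is shared with the moist skin. The heart is mostly striated muscle, with contractile proteins and mitochondrial enzymes among its abundant transcripts in vertebrates. Both organs are filled with blood, and amphibian red cells keep their nucleus. The table names genes only by assembly IDs and pairs none with a gene name, so the labels lung and heart could not be checked against defining markers such as surfactant proteins or cardiac myosins. For the same reason 2 IDs per direction are printed below, without a function, and the other genes are described as groups.

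The heart libraries were much alike and the lung libraries were not. Across the 37325 tested genes, Pearson's r of log2(TPM + 1) was 0.892 to 0.894 between heart libraries and 0.689 to 0.714 between lung libraries. Between a lung and a heart library r was highest for lung replicate 1, at 0.618 to 0.633, and lowest for lung replicate 3, at 0.465 to 0.495. These r are across genes, which are no replicates, and describe the libraries only. The numbers of genes at 1 TPM or more were 27702, 30117 and 28930 in lung replicates 1 to 3, and 31745, 30913 and 31855 in heart replicates 1 to 3. Every heart library thus exceeded every lung library in this number. Of the genes that reached 1 TPM in any library of the organ, 74.7% did so in all 3 heart libraries and 57.6% in all 3 lung libraries. In lung, 8061 genes (21.9%) reached 1 TPM in 1 library only, against 4629 (12.8%) in heart. The depth behind these counts is unknown, as TPM does not keep it.

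The same gene was the most abundant one in all 6 libraries, and it was also the leading gene of blood. It held 9.05%, 6.62% and 16.6% of all TPM in lung replicates 1 to 3 and 6.29%, 11.4% and 5.61% in heart replicates 1 to 3, so the organs overlapped. The 10 most abundant genes of a library together held 24.8%, 23.8% and 38.2% of TPM in lung replicates 1 to 3 and 17.4%, 28.8% and 15.3% in heart replicates 1 to 3, which overlapped as well.

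A pair of libraries held more of the other organ's restricted genes than their replicates did. Genes restricted to heart were taken as those with a heart mean of 20 TPM or more that was at least 20-fold the highest mean of the 8 tissues outside the comparison, and genes restricted to lung were taken likewise. The 86 heart-restricted genes summed to 593 TPM in lung replicate 2, against 259 and 244 TPM in lung replicates 1 and 3. Their median level was 2.10% of the heart mean in lung replicate 2 and 0.055% and 0.231% in lung replicates 1 and 3. The 95 lung-restricted genes summed to 117 TPM in heart replicate 1, against 63.4 and 75.9 TPM in heart replicates 2 and 3, and 14 of them reached 1 TPM there against 4 and 6. Few genes carried this, as their median level was 0% of the lung mean in all 3 heart libraries. Listed at 0 were 72, 82 and 82 of the 95 in heart replicates 1 to 3. Lung replicate 2 also held genes restricted to liver, a list made without lung and heart. These 235 genes had a median level of 0.661% of the liver mean in it, with 124 of them at 1 TPM or more, and 0.00138% and 0% in lung replicates 1 and 3. Among the heart libraries replicate 3 held the most of this list. Its median level there was 0.112%, with 81 genes at 1 TPM or more. In heart replicates 1 and 2 the median was 0.025% and 0.012%, with 56 genes in each.

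The same libraries were also looked at without a list. The 3083 genes at 1 TPM or more in lung replicate 2 and no other lung library held 1.88% to 2.80% of TPM in heart. Those found in lung replicate 1 or 3 alone, 2001 and 2977 genes, held 0.541% to 0.716% there. The 3083 include the first heart gene named below, at 3338, 3776 and 4396 TPM in heart replicates 1 to 3. How far a few abundant members carried the share of the 3083 genes was not examined. The 1650 genes at 1 TPM or more in heart replicate 1 and in no other heart library held 8.60%, 15.1% and 3.78% of TPM in lung replicates 1 to 3. Those found in heart replicate 2 or 3 alone held 0.253% to 0.572% there. In the genes of heart replicate 1 this rested on 10 abundant members, which made up 95.6%, 97.4% and 91.3% of the sum, and the others held 0.330% to 0.398% of TPM in the lung libraries. By number the library did not stand apart, as heart replicate 3 also had 1650 such genes, and 7.67% of those tested were called higher in lung for heart replicate 1, against 6.54% for each of heart replicates 2 and 3. Over all tested genes 4.46% were called higher in lung. Of the genes found in 1 heart library only, 0 were called higher in heart, a direction partly fixed by how these groups were formed. The calls below are therefore also given without these libraries. The part of these genes in the calls was not tested otherwise.

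**Figure D1:**
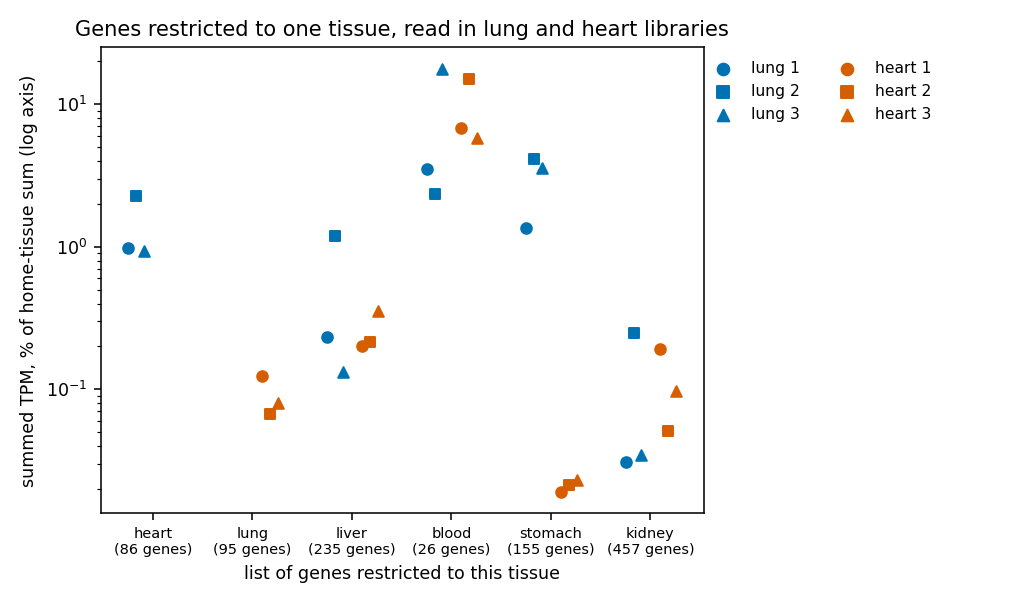
Summed TPM of genes restricted to a tissue, as a percentage of their sum in that tissue (log axis), in each lung library (blue) and heart library (orange), with symbols for replicates 1 to 3. Lung replicate 2 lies above the other lung libraries for heart genes (2.26%) and liver genes (1.19%), and blood genes spread over an overlapping range in both organs.

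The comparison asks which genes set the lung apart from the heart. Many more genes were higher in heart than in lung. In limma on log2(TPM + 1), with a Benjamini-Hochberg adjusted p under 0.05 and a log2 difference of at least 1 in size, 4582 genes (12.3% of those tested) were higher in heart and 1666 (4.46%) were higher in lung. The 3 libraries of the higher organ lay above the 3 of the other organ for all 6248 of these calls. The limits for a call leave little room for overlap with so few libraries, so this is largely fixed in advance. Over all tested genes, called or not, the heart libraries lay wholly above the lung libraries for 10624 genes (28.5%) and the lung libraries above the heart libraries for 4101 (11.0%). With each library rescaled by the median of ratios these numbers were 7825 and 6433. Without lung replicate 2, 5145 genes (13.8%) were higher in heart and 2218 (5.94%) in lung. Of the genes reported with all 6 libraries, 3872 (84.5%) and 1377 (82.7%) were among them. Without lung replicate 2 and heart replicate 1 together, which leaves 2 libraries per organ, 1180 genes were higher in heart and 477 in lung. The count of lung genes was 3089 without lung replicate 1, and it was 757, 733 and 725 without heart replicates 1, 2 and 3, where the heart genes numbered 2474, 2938 and 2292.

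**Figure D2:**
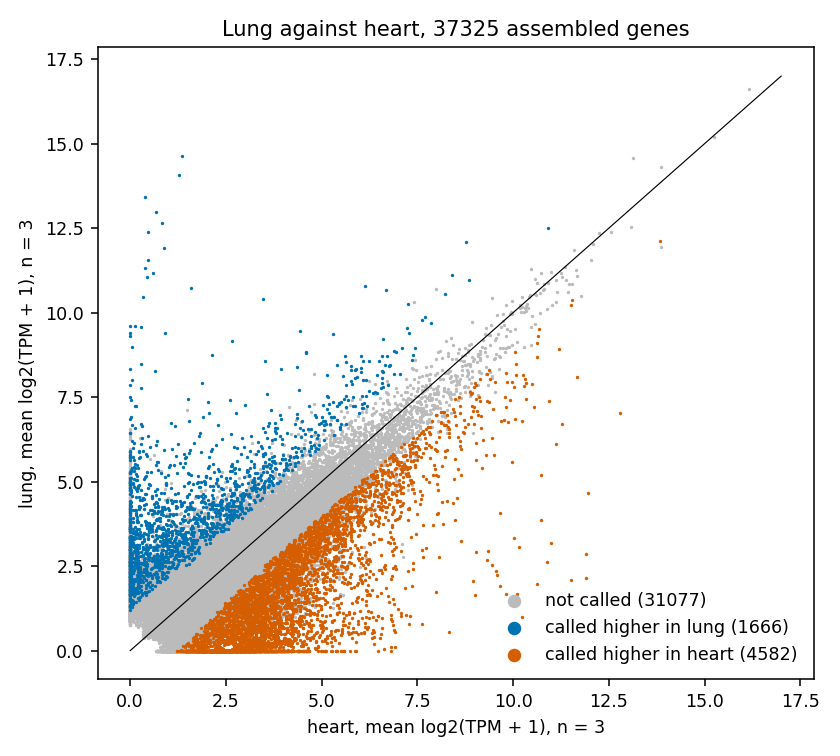
Mean log2(TPM + 1) of 37325 assembled genes in heart (horizontal axis, n = 3) and lung (vertical axis, n = 3), with the line of equal levels drawn in. The 1666 genes called higher in lung (blue) reach log2 differences of up to 13.31, and the 4582 called higher in heart (orange) reach 9.74 in size.

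The excess of heart genes depended on the scale. TPM is a share of the library, and among the 18950 genes at 1 TPM or more in all 6 libraries the median lung minus heart difference was -0.28 on the log2 scale. Rescaling each library by the median of ratios moved it to 0.06. On that scale 3409 genes were higher in heart and 2481 in lung, so that 42.1% of the calls were higher in lung in place of 26.7%. All but 2 of the 1666 lung genes were called there too, and 3408 (74.4%) of the heart genes. When the other 23 libraries shared the fit, the calls were 5666 higher in heart and 4364 higher in lung.

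Genes higher in lung were fewer, and with all 6 libraries a larger share of them had very large differences. The median log2 difference was 2.16 for the lung genes and -2.17 for the heart genes. In size, 424 and 1065 reached 3, and 93 and 114 reached 5. Of the lung genes 22 of 1666 had a log2 difference of 8 or more, against 9 of the 4582 heart genes in size. This count was not repeated without lung replicate 2, where both heart genes named below had larger differences in size. Lung replicate 2 was also the highest lung library for 17 of the 20 lung genes with the greatest difference. How far the larger share of extreme lung genes depends on that library was not tested. Levels in the higher organ were similar, with a median of 13.8 TPM in lung for the lung genes and 13.2 TPM in heart for the heart genes. Means of 1000 TPM or more were reached by 27 of the lung genes and 44 of the heart genes. In the lower organ, 655 (39.3%) of the lung genes were under 1 TPM in every heart library and 186 were listed at 0 in all of them. Of the heart genes, 1576 (34.4%) were under 1 TPM in every lung library and 964 were listed at 0 in all of them. At the other end, 726 (43.6%) of the lung genes and 2043 (44.6%) of the heart genes were at 1 TPM or more in all 6 libraries. Whether the lower organ made these transcripts itself was not tested. The called lung genes took 21.7%, 29.5% and 13.1% of TPM in lung replicates 1 to 3 and 1.49% to 1.74% in the heart libraries. The called heart genes took 27.7%, 22.6% and 29.4% of TPM in heart replicates 1 to 3 and 4.47% to 5.42% in lung. These shares describe genes chosen on the same values.

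The gene with the highest lung excess, TRINITY_DN194_c0_g2, was among the most abundant transcripts of the lung. It was at 28203, 40191 and 14988 TPM in lung replicates 1 to 3, at 9.24 and 0.598 TPM in heart replicates 1 and 2, and it was listed at 0 in heart replicate 3. The organs did not overlap, as the choice of the named genes required. Heart replicate 1, with the largest sum of lung-restricted genes in heart, was the highest of the heart libraries. The log2 difference was 13.31 ± 0.89 (SE; adjusted p = 0.00125 in limma). Outside the comparison this gene was not confined to lung. It averaged 5049 TPM in skin, the other respiratory surface of the animal, with libraries from 2468 to 8430 TPM. It also averaged 173 TPM in liver, where the libraries ranged from 0.519 to 469 TPM, and 76.1 TPM in stomach. In the remaining 5 tissues its means were 0.497 to 9.10 TPM.

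The second lung gene, TRINITY_DN3638_c0_g1, was chosen among genes that every lung and heart library held at 1 TPM or more. It was at 1465, 6355 and 266 TPM in lung replicates 1 to 3, a wide spread with the same order as in TRINITY_DN194_c0_g2. In heart it was at 10.1, 9.17 and 10.7 TPM, below the lowest lung library, as its choice required. Its log2 difference was 6.95 ± 1.06 (SE; adjusted p = 0.00862 in limma). No library of the 8 tissues outside the comparison exceeded 25.2 TPM. Without lung replicate 2 and heart replicate 1 together, the adjusted p was 0.057.

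In heart, TRINITY_DN4771_c0_g1 had the greatest excess. It was at 3338, 3776 and 4396 TPM in heart replicates 1 to 3, which is 3837 ± 532 TPM (SD, n = 3). In lung replicates 1 and 3 it was at 0.192 and 0.129 TPM, whereas lung replicate 2 held 65.2 TPM. The lung value thus rests on 1 library, the one with the largest sum of heart-restricted genes in lung. The log2 difference was -9.74 ± 1.55 (SE; adjusted p = 0.00982 in limma), and without lung replicate 2 it was -11.68. Ovary, at 41.4 and 64.7 TPM, was the highest tissue outside the comparison, followed by kidney with a mean of 7.73 TPM.

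The second heart gene, TRINITY_DN8361_c1_g1, averaged 3828 ± 370 TPM in heart (SD, n = 3). It was at 3717, 3527 and 4241 TPM in heart replicates 1 to 3 and at 1.47, 48.0 and 2.15 TPM in lung replicates 1 to 3, again highest in lung replicate 2. The log2 difference was -9.04 ± 1.11 (SE; adjusted p = 0.00414 in limma), and -10.42 without lung replicate 2. In testis it averaged 19.4 TPM, and all other tissue means outside the comparison were at most 3.95 TPM.

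**Figure D3:**
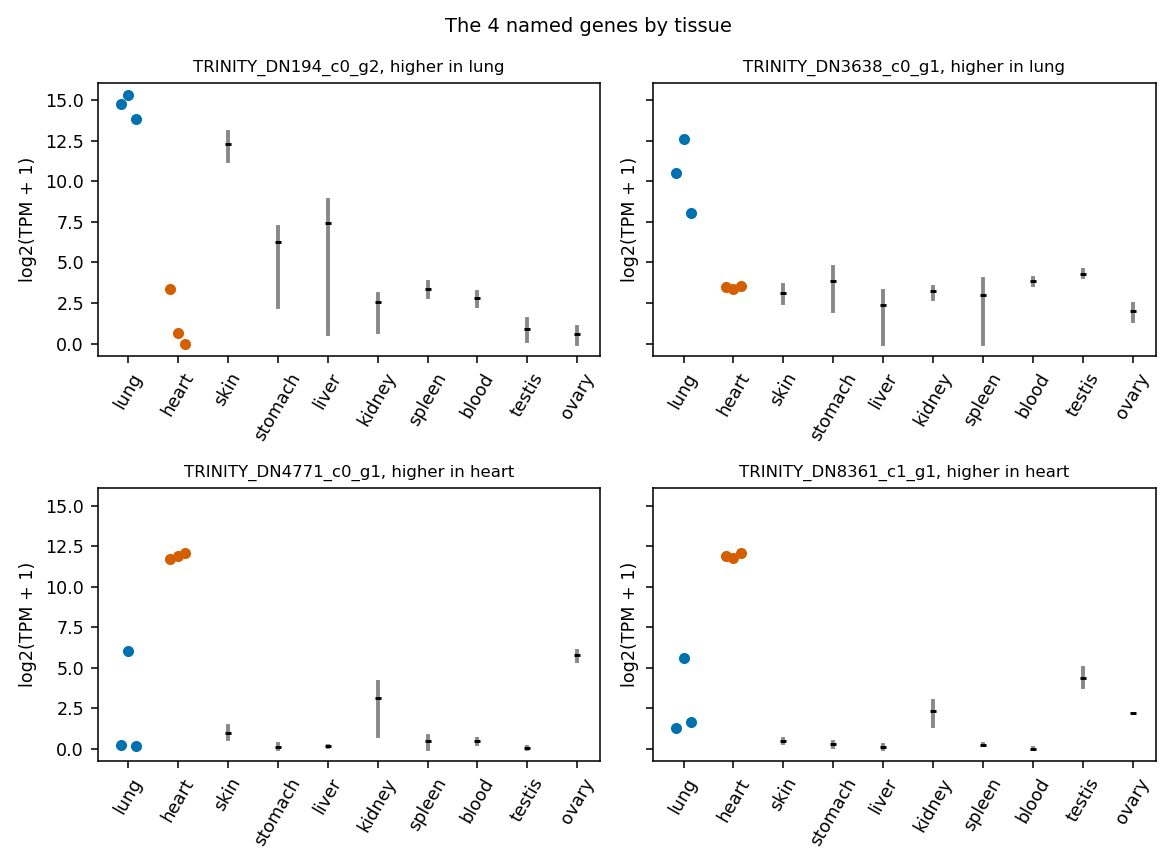
Level of the 4 named genes as log2(TPM + 1), with each lung (blue) and heart (orange) library as a point in the order of replicates 1 to 3, and the range and mean of the libraries of the other 8 tissues as grey bars with a tick. TRINITY_DN194_c0_g2 is also high in skin (mean 5049 TPM), and the heart genes TRINITY_DN4771_c0_g1 and TRINITY_DN8361_c1_g1 are higher in lung replicate 2 (65.2 and 48.0 TPM) than in the other lung libraries.

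The 20 called genes with the greatest difference in each direction shared an order of the libraries. The 20 lung genes had log2 differences of 8.47 to 13.31 and lung means of 766 to 27794 TPM, and together they took between 5.60% and 19.0% of TPM in a lung library. For 17 of the 20 the highest lung library was replicate 2, and for 19 of the 20 the lowest was replicate 3. None exceeded 9.24 TPM in heart, and for 16 of the 20 no heart library exceeded replicate 1. The 16 include genes listed at 0 in all 3 heart libraries, where the heart libraries have no order. The 20 heart genes had differences of 6.87 to 9.74 in size and heart means of 358 to 4012 TPM, and they took 2.64% to 3.70% of TPM in a heart library. The lowest heart library was replicate 2 for 18 of them, and the highest lung library was replicate 2 for 18 of them. In the tissues outside the comparison, 9 of the 20 lung genes averaged 10 TPM or more in stomach and 6 in skin, and 10 were under 10 TPM in all 8. At 100 TPM or more there were 4 in stomach and 2 in skin. Of the 20 heart genes, 12 averaged 10 TPM or more in skin and 7 in kidney, and 3 were under 10 TPM in all 8. At 100 TPM or more these were 7 in skin and 1 in kidney. Over all tested genes the shares at 10 TPM or more were 19.7% in stomach, 23.4% in skin and 33.1% in kidney. The 7 of 20 in kidney thus lie near the share of all tested genes. That share was not counted for genes under 10 TPM in all 8. Both lists hold very abundant genes, which the shares of all tested genes do not take into account.

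The tissues outside the comparison took no part in the fit and show where else the called genes were present. Many genes higher in lung were also present in stomach, an organ that like the lung grows from the foregut. Of the 1666 lung genes, 632 (37.9%) averaged 10 TPM or more in stomach, against 19.7% of all tested genes and 16.4% of the heart genes. In skin the shares were 34.0% of the lung genes, 23.4% of all tested genes and 25.5% of the heart genes. Stomach was the highest of the 8 tissues for 439 (26.4%) of the lung genes, against 10.2% of all tested genes and 3.36% of the heart genes. Skin was so for 15.7% of the lung genes and 12.5% of the heart genes, against 7.14% of all. Testis led for 32.1% of the heart genes and kidney for 18.3%, against 26.2% and 12.9% of all tested genes. After rescaling, 38.6% of the genes higher in lung averaged 10 TPM or more in stomach and 34.9% in skin, and without lung replicate 2 the shares were 32.1% and 29.4%. These shares have no test, and the called genes differ from all tested genes in their level.

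Blood, which fills both organs, held the genes higher in lung at low levels. The lung genes had a median of 0.209 TPM in blood, against 2.47 TPM for the heart genes and 2.91 TPM for all tested genes. At 10 TPM or more in blood were 14.0% of the lung genes, 22.1% of the heart genes and 22.1% of all tested genes. With calls from rescaled TPM the shares were 16.6% of the lung genes and 17.2% of the heart genes, so the gap between the organs depended on the scale. Without lung replicate 2 they were 14.2% and 24.7%. The 26 genes restricted to blood, at 20 TPM or more and 20-fold over the other 7 tissues outside the comparison, were then read in each library. Their sum was 427, 286 and 2172 TPM in lung replicates 1 to 3 and 830, 1831 and 705 TPM in heart replicates 1 to 3. The organs overlapped, and within each organ 1 library held more than the other two, replicate 3 in lung and replicate 2 in heart. Of the 25 blood-restricted genes tested, 0 were called higher in lung and 1 higher in heart by limma. Over all tested genes 4.46% and 12.3% were called, so a list of this size would hold few calls at the background share. In whole-organ RNA, fewer cells of a type and less RNA per cell cannot be told apart.

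Genes restricted to stomach, in a list made without lung and heart, differed widely between the organs. The 155 genes, chosen by the same rule, summed to 5015, 15365 and 13220 TPM in lung replicates 1 to 3 and to 71.0, 79.7 and 86.1 TPM in the heart libraries. Of the 75 that were tested, 27 were called higher in lung, where 4.46% of all tested genes were. Another 3 were called higher in heart, where 12.3% of all were. Of the 155, 43, 79 and 94 were at 1 TPM or more in lung replicates 1 to 3, against 13, 13 and 12 in heart. The list thus passed the filter mainly through lung, so the direction of these calls was partly fixed in advance. The 27 had lung means of 3.18 to 908 TPM with a median of 55.2 TPM, and a median of 208 TPM in stomach. In 3 of them the lung mean exceeded that of stomach. None of the 27 exceeded a mean of 5.84 TPM in heart. From rescaled TPM 27 of the list were again called higher in lung, and without lung replicate 2 there were 29. The lung libraries differed in which genes of the list they held. Over the whole list the lowest sum was in replicate 1, whereas the 27 called genes summed to 4689, 6315 and 1788 TPM in lung replicates 1 to 3 and were lowest in replicate 3. Few genes carried the sums in lung replicates 1 and 2, where the 10 leading ones made up 70.2% and 64.9%. In lung replicate 3 the 10 made up 46.7%, less than the rest of the list. The median level of the list was 0%, 0.159% and 0.533% of the stomach mean in lung replicates 1 to 3.

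Skin-restricted genes were called in both directions. Of the 82 tested, 16 were higher in lung and 31 higher in heart, where 4.46% and 12.3% of all tested genes were called. The list holds 328 genes, and the filter on these same 6 libraries kept only the 82. Members absent from both organs were left out, so these counts describe the kept part only. In lung the sum of the list rested on 1 gene, TRINITY_DN194_c0_g2, which made up 94.4% of it. In heart the leading gene of the list made up 35.9%, at 5883, 7718 and 7780 TPM in heart replicates 1 to 3 and a mean of 258 TPM in lung, and it was called higher in heart. From rescaled TPM 19 were higher in lung and 29 in heart, and without lung replicate 2 these were 12 and 28. Genes restricted to kidney were at a median of 0% of the kidney mean in all 6 libraries, and 4 of 457 passed the filter for testing. Their sums were low but uneven, at 11.4, 91.2 and 12.9 TPM in lung replicates 1 to 3. In heart replicates 1 to 3 they were 70.4, 18.8 and 36.2 TPM. Lung replicate 2 and heart replicate 1 thus led here too. The 50 spleen-restricted genes summed to 224 TPM in heart replicate 1, against 43.2 and 48.0 TPM in heart replicates 2 and 3. Few genes carried this, as 7, 7 and 9 of them were at 1 TPM or more in heart replicates 1 to 3. The 10 genes restricted to spleen at 50-fold summed to 0.565, 0.957 and 0.398 TPM there, without an excess in heart replicate 1.

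**Figure D4:**
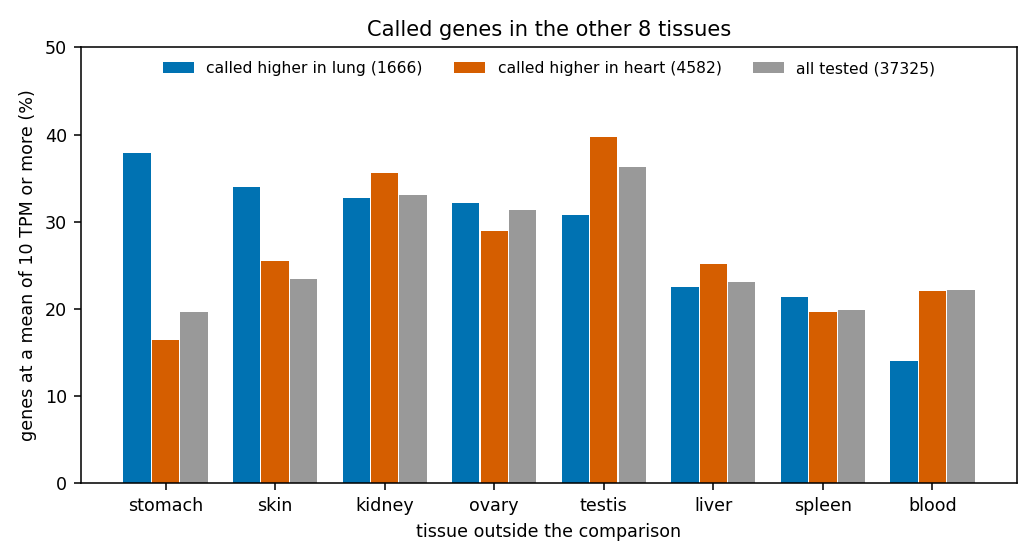
Share of genes that averaged 10 TPM or more in each of the 8 tissues outside the comparison, for the genes called higher in lung (blue), those called higher in heart (orange) and all tested genes (grey). The lung genes stand above all tested genes in stomach (37.9% against 19.7%) and skin (34.0% against 23.4%) and below them in blood (14.0% against 22.1%).

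The called genes were also sorted by how widely they were used. Of the lung genes, 495 (29.7%) averaged 1 TPM or more in all 8 tissues outside the comparison, against 40.8% of the heart genes and 46.3% of all tested genes. Lung had the highest mean of all 10 tissues for 729 (43.8%) of the lung genes, and heart for 2327 (50.8%) of the heart genes. Over all tested genes lung led for 14.7% and heart for 12.1%, and the choice of the called genes partly fixes the excess. The remainder were higher in some other tissue than in the organ that exceeded its counterpart. On average 55 of the lung genes and 234 of the heart genes were under 1 TPM in all 8, which is 3.30% and 5.11% against 5.56% of all tested genes.

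The lung-restricted genes themselves were unevenly spread over the lung libraries. The 95 genes took 7.59%, 16.3% and 4.41% of TPM in lung replicates 1 to 3, and 41 of them were at 1 TPM or more in every lung library. For 24 of them (25.3%) 1 library held 90% or more of the lung total. The 86 heart-restricted genes took 2.99%, 2.01% and 2.87% of TPM in heart replicates 1 to 3, and 84 were at 1 TPM or more in every heart library. For 4 of the heart-restricted genes 1 library held 90% or more. Of the 81 lung-restricted genes tested, 39 were called higher in lung, and of the 85 heart-restricted genes 82 were called higher in heart. Over all tested genes 4.46% and 12.3% were called in these directions. The counts of 39 and 82 are partly fixed by the lists, which were chosen on the lung and heart means.

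The wider spread of the lung libraries held for most genes. The SD over replicates of log2(TPM + 1) had a median of 0.56 in lung and 0.33 in heart, and it was larger in lung for 26531 (71.1%) of the tested genes. Among the genes called higher in lung the medians were 0.53 and 0.23, and among those called higher in heart they were 0.31 and 0.33. These medians are partly fixed, as the calls favour a small spread and genes listed at 0 throughout have an SD of 0. Such were 186 of the lung genes in heart and 964 of the heart genes in lung. Calls were more frequent at higher levels. Among the 1001 genes with a mean over the 6 libraries of 100 TPM or more, 12.6% were called higher in lung and 23.2% higher in heart, with a median SE of 0.31 on the log2 scale. Among the 16676 genes between 1 and 5 TPM the shares were 3.35% and 9.35%, with a median SE of 0.50.

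Assembled genes of the same component, the unit in which the assembler groups related sequences, did not always go together. The tested genes fell into 32417 components, of which 3697 held 2 or more tested genes. Of the genes in these, 4.80% were called higher in lung and 13.5% higher in heart, near the 4.46% and 12.3% of all tested genes. In 250 components 2 or more genes were called. In 41 of these all calls were higher in lung and in 145 all were higher in heart, while 64 components (25.6%) held genes called in opposite directions. From rescaled TPM these were 90 of 251 components, and without lung replicate 2 they were 85 of 331. How many components would hold opposite calls if the genes of a component were unrelated was not examined. The component is a feature of the assembly, and whether such genes are paralogs, isoforms or fragments of 1 gene is uncertain. Every number of genes given is therefore a number of assembled sequences.

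**Figure D5:**
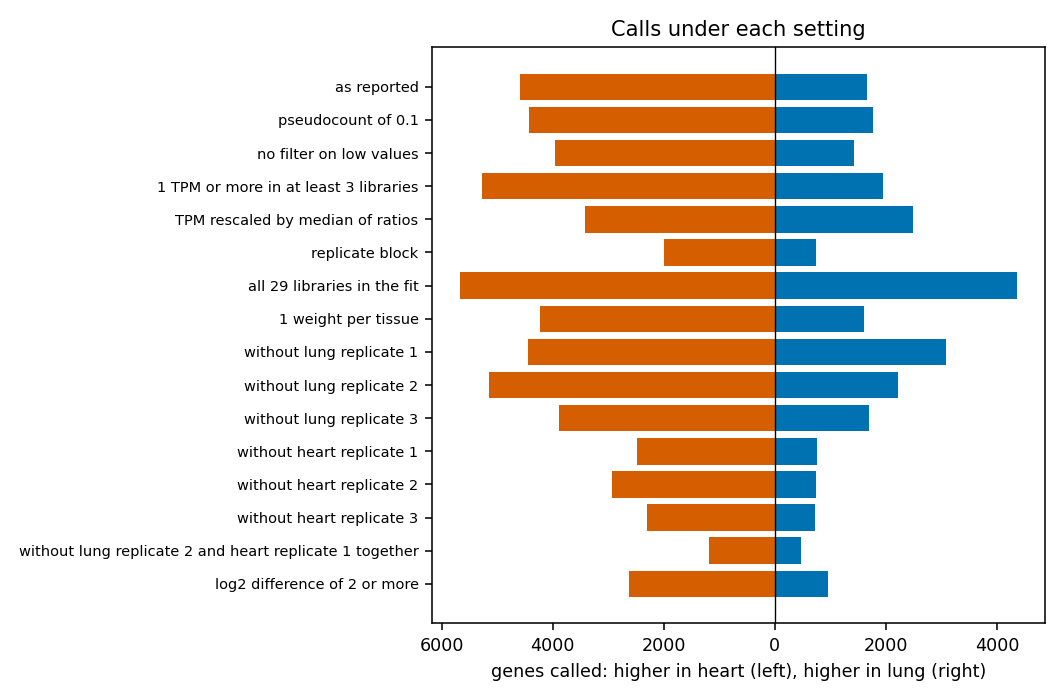
Number of genes called higher in heart (orange, to the left) and in lung (blue, to the right) as reported and under each alternative setting. The heart side is the longer one in every setting, from 1180 against 477 genes without lung replicate 2 and heart replicate 1 to 5666 against 4364 with all 29 libraries in the fit.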

How the data were processed

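RNA sequencing libraries of 3 lung and 3 heart samples were used. The values are TPM as the authors deposited them, in 1 table whose 29 columns each matched 1 sample by name and each sum to 1000000. All 53113 row IDs look like gene IDs of the Trinity assembler. Which aligner and quantifier were used is not given in the sources used here. Since TPM does not keep depth, neither a count test nor a counting interval was used. No genome or gene names were used, so marker genes could not be looked up.

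Genes that reached 1 TPM in at least 2 of the 6 libraries entered a fit of log2(TPM + 1) in limma 3.58.1 (R 4.3.3), with a mean per tissue, empirical Bayes moderation with an intensity trend, and Benjamini-Hochberg adjustment over all 37325 genes. Differences are lung minus heart on that scale, which understates changes of low genes. Calls needed an adjusted p under 0.05 and a log2 difference of 1 or more. The 2 named genes per direction were the called gene with the largest difference, and the one with the largest difference among called genes at 1 TPM or more in all 6 libraries. For both, the 3 libraries of the higher organ had to lie above the 3 of the other. Restricted lists used a home mean of 20 TPM or more and 20-fold over the highest other mean. No value above 0 was equal between any pair of the 6 libraries. Alternatives were another pseudocount (0.1), other filters, median-of-ratios rescaling, a replicate block, each library left out, all 29 libraries in the fit, weights per tissue, a log2 limit of 2 and 50-fold lists. The fit was tested on simulated data, with noise drawn separately for each gene and library. Shifts shared by many genes of a library were not simulated. Descriptions used Python 3.11.15, pandas 2.3.3, numpy 2.4.6 and matplotlib 3.10.9. The comparison, lists and settings were chosen with earlier results of these data known, and leaving out lung replicate 2 and heart replicate 1 together was chosen after seeing the values of these lists.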

Additional observations from a re-analysis of the deposited data

How the results depend on the processing

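The heart side had more calls than the lung side under each of the 15 alternatives, but the numbers moved. Higher in lung were 1666 genes as reported, 747 with the replicate block, 4364 with all 29 libraries in the fit, 959 at a log2 difference of 2 or more, and 477 without lung replicate 2 and heart replicate 1 together, a setting chosen after seeing the data. Higher in heart were 4582 genes as reported, and 1995, 5666, 2632 and 1180 in the same settings. Leaving out 1 library gave 725 to 3089 genes higher in lung and 2292 to 5145 higher in heart. The lung count rose to 3089 without lung replicate 1 and fell to 757, 733 and 725 without heart replicates 1, 2 and 3. Without them the heart count was 2474, 2938 and 2292. These fits have fewer libraries. Lung libraries lay wholly above heart libraries for 4417 to 6456 genes with 1 library left out and for 6433 after rescaling, in place of 4101, and heart libraries above lung libraries for 11685 to 13268 with 1 left out, in place of 10624, which rescaling lowered to 7825. A pseudocount of 0.1, the other filters and weights per tissue moved no count of calls by more than 1.5 times. All 4 named genes kept their direction, and TRINITY_DN3638_c0_g1 was not called in 1 of its 14 alternatives, with adjusted p from 6.81e-06 to 0.057 over them. The cause of these changes was not tested. The data gave no sign that the replicate numbers pair the samples, which the labels do not settle: same-numbered lung and heart libraries had correlations of deviations of 0.009, -0.005 and -0.073, and no lung library correlated best with the heart library of its own number. The deviations within an organ sum to 0 for each gene, so these correlations constrain one another. With so few libraries this check cannot settle whether the samples are paired. Blood had no gene at 50-fold, so that list has no value there. The unknown depth limits all statements on genes listed at 0.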
